A study of Mus with 18 samples.

Results

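Mouse lens epithelial cells (LECs) were taken directly (0 h) or 6 h after removal of the lens fiber cells, as in cataract surgery. Jun, Junb, Jund and Atf3 were followed in them. They are the 4 genes of the Jun family and its partner Atf3, picked by their Ensembl identifiers (ENSMUSG00000052684 for Jun, ENSMUSG00000052837 for Junb, ENSMUSG00000071076 for Jund and ENSMUSG00000026628 for Atf3) from the 55416 genes counted by RNA sequencing. All 4 were counted in every one of 18 libraries, with 237 to 32465 read pairs per gene and library, and all 4 passed the filter on low counts in each comparison.

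Jun, JunB and JunD are basic leucine zipper proteins that pair with each other or with Fos proteins to form AP-1, a transcription factor that binds DNA as a dimer. Jun is an activator of growth and stress genes, JunB is an immediate early gene product that can also restrain Jun, and JunD is the member that resting cells usually express most steadily. ATF3 belongs to the ATF/CREB group, can pair with Jun proteins and is induced by many kinds of cell stress and injury. None of the 4 was the gene altered in the mutant mice of the study. FosB, which was deleted in the lens of one of the mutants, is a Fos protein and so a possible AP-1 partner of the Jun proteins.

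There were 6 groups of 3 libraries, all from mice of the C57BL/6 strain label aged 3 to 5 months. Wild type (WT) mice were compared with Egr1KO mice, homozygous for an Egr1 allele carrying a neo cassette in exon 2 in every tissue, and with FosBcKO mice, whose floxed Fosb was deleted by the MLR10 cre transgene, which an altered alphaA-crystallin promoter drives in the lens. In each mouse the fiber cell mass was taken out of 1 eye, the second eye was operated on 6 h later, and both capsules were collected at once, so that the second eye gave the 0 h capsule and the first the capsule 6 h post cataract surgery (PCS). The 0 h capsule had thus just been operated on as well, in a mouse whose other eye was operated on 6 h before. Any effect of this on the 0 h levels was not tested. Each library pooled 5 capsules of 1 genotype and time. The labels do not say which 0 h and 6 h libraries came from the same mice.

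Total gene counts were 9609295 to 13871592 per library. Levels are given as CPM, the count of a gene over the total gene count of its library, with no TMM factor, whereas fold changes and FDRs come from fits with TMM factors (0.898 to 1.14 over the libraries). Scaling the levels by TMM as well, an alternative added after the data had been seen, changed none of the statements below on whether groups of libraries overlapped. Levels, since gene lengths were not at hand, are compared for 1 gene between libraries and never between genes. The deposited tables hold no gene names, so neither the loss of Egr1 or Fosb nor the markers of lens and other cell types were checked here, and genotype and cell type are as labelled. In such pooled tissue, a change in the number of cells that express a gene and a change in its RNA per cell cannot be told apart.

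All 4 genes were upregulated in WT LECs by 6 h PCS, Junb and Atf3 by 8- to 10-fold and Jun and Jund by about 3-fold. Junb stood at 52.2, 22.4 and 42.4 CPM in the 0 h libraries (replicates 1, 2 and 3) and at 535, 266 and 396 CPM at 6 h PCS. The lowest 6 h library was thus far above the highest 0 h library. The log2 fold change of Junb was 3.25 (SE 0.37), or 9.51-fold (edgeR quasi-likelihood test, false discovery rate (FDR) 0.00158). Atf3 rose from 69.1, 42.3 and 79.5 CPM to 825, 483 and 336 CPM. Its 6 h libraries spread widely, with replicate 1 the highest, but did not overlap the 0 h libraries, and the log2 fold change was 3.02 (SE 0.40, FDR 0.00238, edgeR).

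Jun in the same WT libraries had 277, 316 and 356 CPM at 0 h and 1381, 941 and 848 CPM at 6 h PCS. Its 0 h libraries lay close together, the groups did not overlap, and the log2 fold change was 1.64 (SE 0.26, FDR 0.00402, edgeR). Jund had 402, 462 and 537 CPM at 0 h and 1667, 1570.3 and 1095 CPM at 6 h PCS. Here too every 6 h library exceeded every 0 h library, with a log2 fold change of 1.54 (SE 0.26, FDR 0.00547, edgeR). A gene was called where its FDR was at most 0.05 and its change over 2-fold, and by this rule all 4 genes were called higher in WT, against 13.5% of the 15440 genes tested. All 4 also had 6 h libraries entirely above the 0 h libraries, which 28.2% of genes showed. The median log2 fold change of the 4 was 2.33, compared with -0.02 over all genes tested. A larger log2 fold change than that of Junb was found for 2.59% of genes, and than that of Jun for 12.3%. When one fit of all 18 libraries replaced the fit of the 6 WT libraries, Jun no longer passed (FDR 0.0693).

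**Figure D1:**
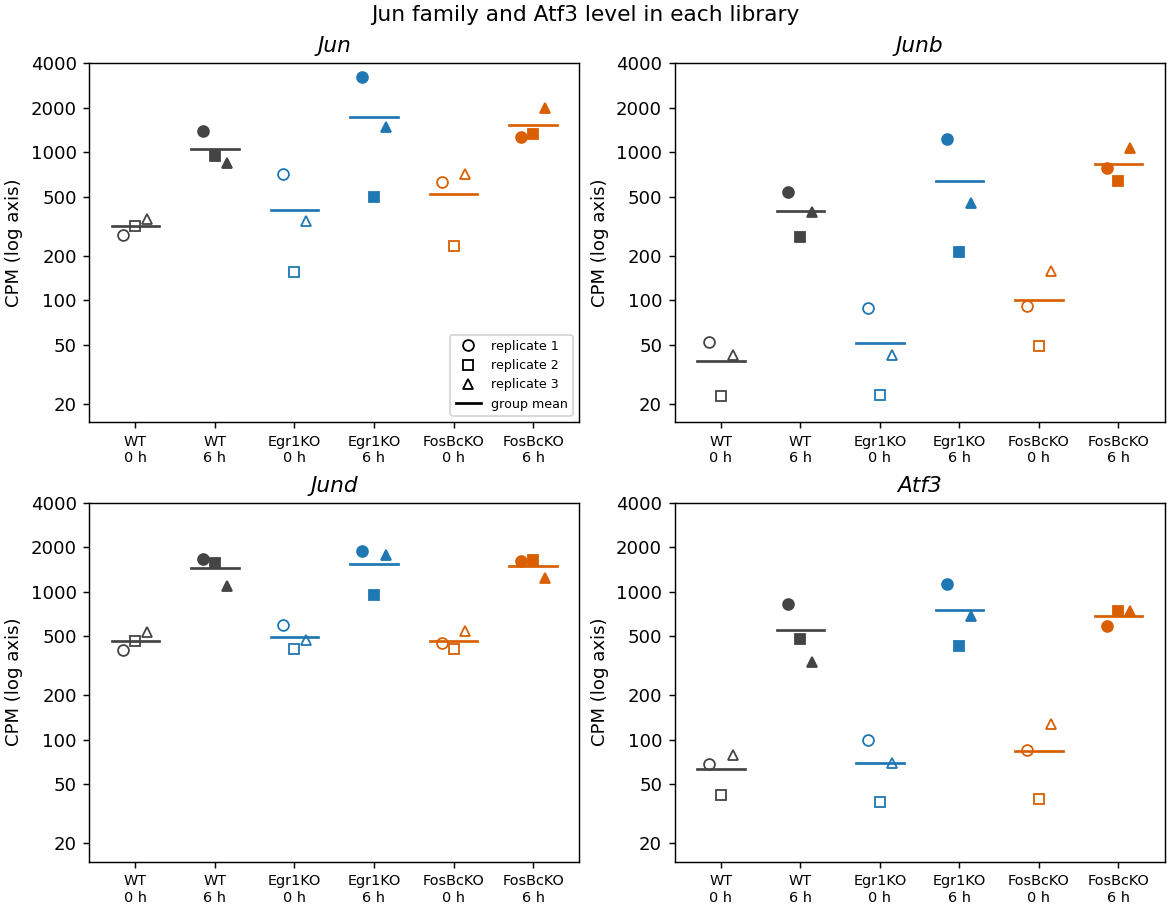
Level of Jun, Junb, Jund and Atf3 in each library, in CPM on a log axis; open symbols are 0 h, filled symbols 6 h PCS, shapes are replicate numbers and lines are the means of 3 libraries. Within WT and within FosBcKO the filled symbols lie above the open ones for each gene, while for Jun in Egr1KO the lowest 6 h library (494 CPM) lies below the highest 0 h library (713 CPM).

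In Egr1KO LECs, Junb, Jund and Atf3 were upregulated and Jun did not pass the test. Junb had 89.1, 22.8 and 42.7 CPM at 0 h and 1237, 213 and 457 CPM at 6 h PCS. The libraries of each time differed several-fold among themselves, yet the lowest at 6 h exceeded the highest at 0 h. The log2 fold change was 3.71 (SE 0.77, FDR 0.0167, edgeR), which passed 0.05 with the filter on low counts but not without it (FDR 0.114). Atf3 rose from 100.2, 38.0 and 69.4 CPM to 1131, 432 and 687 CPM. Its groups were well apart, and the log2 fold change of 3.51 (SE 0.49, FDR 0.00507, edgeR) exceeded that of all but 1.41% of genes.

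Jund in Egr1KO had 597, 411 and 472 CPM at 0 h and 1879, 947 and 1762 CPM at 6 h PCS. It varied less between libraries than the other 3 genes, and the log2 fold change was 1.71 (SE 0.30, FDR 0.00974, edgeR). Jun had 713, 156 and 342 CPM at 0 h and 3213, 494 and 1476 CPM at 6 h PCS. Its groups overlapped, since replicate 2 at 6 h stayed below replicate 1 at 0 h. The log2 fold change of Jun was 2.18 (SE 0.76, 95% interval 0.43 to 3.94, FDR 0.0765, edgeR), larger than in WT but measured with a wider interval. The edgeR exact test on the same 6 libraries gave Jun an FDR of 0.0187, and the quasi-likelihood test in one fit of all 18 libraries gave 0.0266. Thus 3 of the 4 genes were called higher in Egr1KO, against 9.28% of 14586 genes, and 3 of 4 had all 6 h libraries above all 0 h libraries, against 18.1%. The median log2 fold change of the 4 was 2.85, compared with 0.00 over all genes. Without replicate 3 of the Egr1KO 0 h group, Atf3 alone was called (FDR of Junb 0.0759 and of Jund 0.0570, edgeR), and without replicate 2 of that group Junb had an FDR of 0.0548.

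The Egr1KO libraries of each time differed in the same way for the 4 genes, with replicate 1 the highest and replicate 2 the lowest for each gene both at 0 h and at 6 h PCS.

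FosBcKO LECs upregulated all 4 genes by 6 h PCS. Junb had 91.2, 48.9 and 159 CPM at 0 h and 784, 634 and 1062 CPM at 6 h PCS. Every FosBcKO 6 h library was above all WT libraries of either time, and the log2 fold change over time was 3.03 (SE 0.45, FDR 0.00787, edgeR). Atf3 rose from 84.8, 39.7 and 128 CPM to 590.2, 742 and 738 CPM. Its 6 h libraries were close together, unlike those of WT and Egr1KO, and the log2 fold change was 3.02 (SE 0.43, FDR 0.00670, edgeR).

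Jund in FosBcKO had 452, 408 and 541 CPM at 0 h and 1623, 1651 and 1236 CPM at 6 h PCS. With a log2 fold change of 1.69 (SE 0.21, FDR 0.00141, edgeR), it had the smallest error of the 4 genes in this genotype. Jun had 630.3, 233 and 710.3 CPM at 0 h and 1274, 1326 and 1999.8 CPM at 6 h PCS. The groups did not overlap, although a pair of 0 h libraries was higher than any WT 0 h library, and the log2 fold change was 1.53 (SE 0.42, FDR 0.0392, edgeR). All 4 genes were called higher, against 11.2% of 15475 genes, and all 4 had 6 h libraries above all 0 h libraries, against 22.8%. The median log2 fold change of the 4 was 2.36, compared with 0.05 over all genes. Jun was near the threshold: it was not called without the filter on low counts (FDR 0.194), in one fit of all 18 libraries (FDR 0.112), or when replicate 1 (FDR 0.0678) or 3 (0.0536) at 0 h or replicate 1 (0.158), 2 (0.0868) or 3 (0.0944) at 6 h was left out (edgeR). Junb lost its call without replicate 1 at 6 h (FDR 0.0605).

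**Figure D2:**
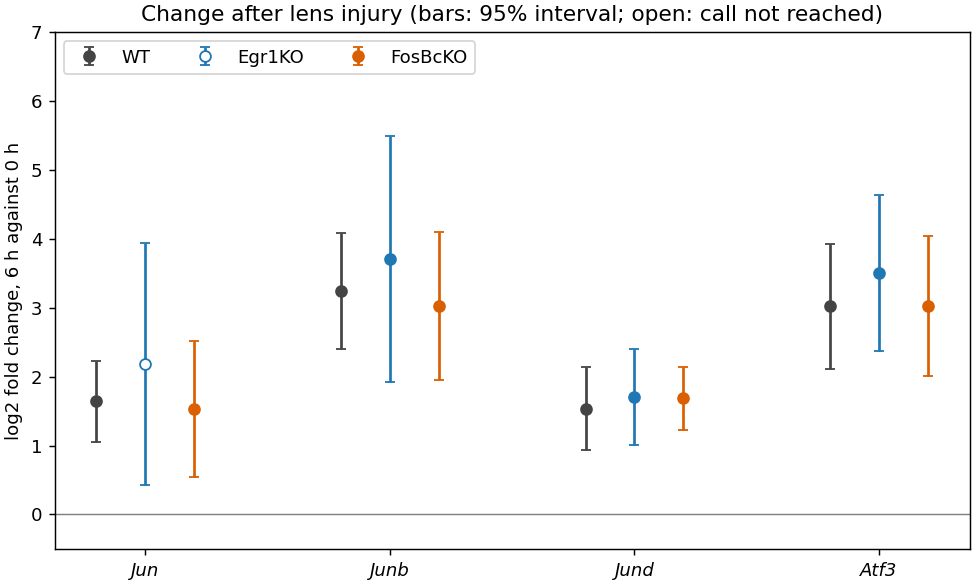
Log2 fold change from 0 h to 6 h PCS for each gene (points) with its 95% interval (bars) in WT, Egr1KO and FosBcKO; the open point did not pass the call. Junb and Atf3 lie between 3.02 and 3.71 and Jun and Jund between 1.53 and 2.18.

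Junb and Atf3 rose more than Jun and Jund in each genotype. This was compared within libraries, as the log2 of one gene's CPM over another's, after the values had been seen, with an exact two-sided permutation test of the time labels inside each genotype over 6 pairs of genes. The response of Junb exceeded that of Jun by 1.56 on the log2 scale averaged over genotypes (between 1.5 and 1.67 in the 3 genotypes), and that of Jund by 1.72. The response of Atf3 exceeded that of Jun by 1.44 and that of Jund by 1.60. Each of these differences had p = 0.00025 by this exact test, the smallest that the 8000 arrangements allow. The Benjamini-Hochberg adjusted p of each was 0.000375 by the same exact test. It treats the libraries of the 2 times as independent, although they may come from the same mice. The difference was 0.12 between Junb and Atf3 (exact permutation p = 0.520) and 0.16 between Jun and Jund (exact permutation p = 0.576), neither larger than the spread between libraries.

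The make-up of the Jun family RNA shifted toward Junb, which is a second view of the same counts and not separate evidence. Of the read pairs of Jun, Junb and Jund together, Junb took 4.82% ± 2.19 at 0 h and 13.8% ± 3.79 at 6 h PCS in WT (SD, n = 3). It took 5.07% ± 1.26 and 14.9% ± 4.0 in Egr1KO and 8.71% ± 2.24 and 21.2% ± 3.58 in FosBcKO. The shares are of read pairs and are not divided by transcript length, so their changes and not their sizes are of use. Their test, given next, also treats the libraries of the 2 times as independent. The mean gain of Junb was 10.4 percentage points over the 3 genotypes, and every 6 h library exceeded every 0 h library of its genotype (exact permutation of the time labels inside each genotype, 2-sided, p = 0.00025, the smallest possible, adjusted over the 3 genes p = 0.00075). The share of Jund changed by a mean of -7.83 percentage points, with means of 56.7% and 50.0% in WT, and this did not pass the test (exact permutation p = 0.110, adjusted p = 0.164). That of Jun changed by -2.62 percentage points (exact permutation p = 0.481), with a higher mean at 6 h in Egr1KO and a lower one in WT and FosBcKO.

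**Figure D3:**
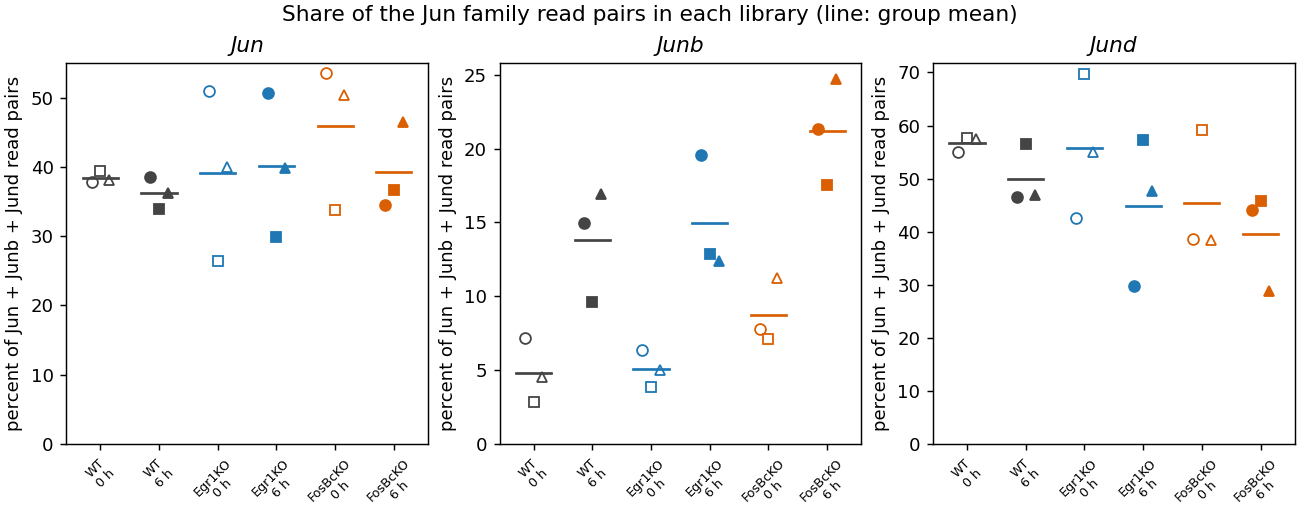
Percent of the Jun, Junb and Jund read pairs that each gene took in each library, by genotype and time (open symbols 0 h, filled 6 h PCS, shapes are replicate numbers, lines are group means). Junb rises from a group mean of 4.82% to 13.8% in WT and from 8.71% to 21.2% in FosBcKO.

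The knockouts were then compared with WT at each time, to ask whether the level of the 4 genes differed by genotype. No group was labelled as carrying the cre transgene alone. Its effect, like any difference in strain background, cannot be told apart from that of gene loss. Of the 4, only Junb in FosBcKO at 6 h PCS was called, at a level 2.26-fold that of WT. The 3 FosBcKO libraries (784, 634 and 1062 CPM) were all above the 3 WT libraries (535, 266 and 396 CPM). The log2 difference was 1.18 (SE 0.32, 95% interval 0.45 to 1.90, FDR 0.0100, edgeR exact test). At this time 4.48% of 16155 genes were called higher in FosBcKO, and 9.99% had all FosBcKO libraries above all WT libraries. This call depended on the test: the edgeR quasi-likelihood test gave an FDR of 0.111 on the same libraries and 0.428 in one fit of all 18, and the exact test gave 0.0834 without replicate 2 of WT 6 h, 0.0558 without replicate 3 of WT 6 h and 0.106 without replicate 3 of FosBcKO 6 h. Over all alternatives the log2 difference stayed between 0.95 and 1.47.

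The other 3 genes were not called in FosBcKO at 6 h PCS. Jun was at 1533 ± 405 CPM in FosBcKO and 1057 ± 285 CPM in WT (SD, n = 3), a log2 difference of 0.66 (95% interval -0.10 to 1.41, FDR 0.289, edgeR). For Atf3 the log2 difference was 0.45 (95% interval -0.39 to 1.29) and for Jund 0.17 (95% interval -0.53 to 0.88). For all 3 the libraries of the genotypes overlapped.

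At 0 h, none of the 4 genes was called in FosBcKO, where 0.295% of 14556 genes were called. Junb was at 99.6 ± 55.4 CPM in FosBcKO and 39.0 ± 15.2 CPM in WT (SD, n = 3), a log2 difference of 1.37 with a 95% interval of -0.24 to 2.99 (FDR 0.718, edgeR exact test). Replicate 2 of FosBcKO lay inside the WT range for Junb, and it was the lowest of its group for all 4 genes. Without that library, Junb (log2 difference 1.71, FDR 0.0463) and Jun (1.11, FDR 3.07e-05) were called (edgeR exact test). Without replicate 3 of FosBcKO 0 h, the values moved the other way, to 0.83 for Junb, 0.44 for Jun and -0.04 for Atf3. With all libraries, Jun had a log2 difference of 0.74 (95% interval -0.56 to 2.04) and Atf3 of 0.43 (-1.01 to 1.86). Jund was at 467 CPM in both genotypes, with a log2 difference of 0.00 and an interval of -0.30 to 0.31.

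Egr1KO did not differ from WT by the call in any of the 4 genes, at 0 h (0.41% of 14373 genes called) or 6 h PCS (0.736% of 15618 called). At 0 h the log2 differences were 0.38 for Jun (95% interval -1.30 to 2.06), 0.43 for Junb (-1.31 to 2.17), 0.16 for Atf3 (-1.07 to 1.38) and 0.11 for Jund (-0.25 to 0.46). These intervals are wide enough to hold a 2-fold difference for every gene but Jund. At 6 h PCS they were 0.95 for Jun (-0.47 to 2.38, FDR 0.667), 0.93 for Junb (-0.46 to 2.31, FDR 0.681), 0.68 for Atf3 (-0.40 to 1.75, FDR 0.724) and 0.30 for Jund (-0.57 to 1.18, FDR 0.885, edgeR exact test). The Egr1KO 6 h libraries lay on both sides of WT, replicate 1 above all 3 WT libraries and replicate 2 below the WT mean for all 4 genes. Jun was called without replicate 2 of Egr1KO 6 h (1.41, FDR 0.0226). Without replicate 1 of that group the differences were 0.12 for Jun, -0.02 for Junb, 0.22 for Atf3 and 0.11 for Jund. Both knockouts were set against the same WT libraries.

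**Figure D4:**
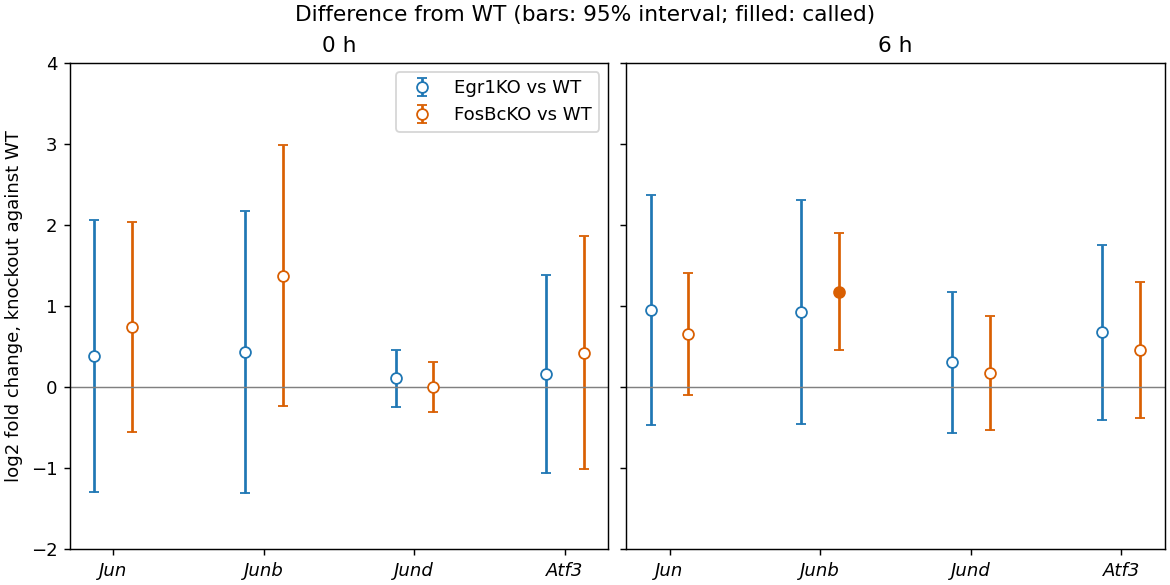
Log2 difference of each gene between a knockout and WT (points) with its 95% interval (bars) at 0 h and at 6 h PCS; the filled point was called. Junb in FosBcKO at 6 h PCS, at 1.18, is the single filled point, and the intervals of the other points include 0.

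The knockouts did not differ from each other in any of the 4 genes by the call, at 0 h (0.96% of 14167 genes called) or at 6 h PCS (2.5% of 15885 called). The largest of these differences was that of Junb at 0 h, higher in FosBcKO by 0.95 on the log2 scale (95% interval -1.08 to 2.98). At 6 h PCS, Jun was lower in FosBcKO by a log2 difference of -0.30 (95% interval -1.72 to 1.12) and Junb higher by 0.24 (-1.14 to 1.62).

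Whether the injury response itself differed by genotype was tested as an interaction over all 18 libraries. The response in Egr1KO exceeded that in WT by 0.52 for Jun (95% interval -1.39 to 2.42), 0.43 for Junb (-1.52 to 2.38), 0.15 for Jund (-0.66 to 0.95) and 0.46 for Atf3 (-1.05 to 1.97) on the log2 scale. In FosBcKO the response differed from that in WT by -0.17 for Jun (-2.07 to 1.74), -0.28 for Junb (-2.22 to 1.66), 0.09 for Jund (-0.71 to 0.90) and -0.06 for Atf3 (-1.56 to 1.45). No gene of the 17469 tested was called in either interaction (0% each) by the edgeR quasi-likelihood test, while 1141 genes in Egr1KO and 1171 in FosBcKO had an unadjusted p under 0.05.

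Averaged over the 2 times, Junb was higher in FosBcKO than in WT by 1.18 on the log2 scale, by 1.28 at 0 h and 1.08 at 6 h PCS. This average was chosen after the values had been seen and was tested for 4 genes in 2 knockouts with an exact two-sided permutation of the genotype labels within each time, which treats the libraries of the 2 times as independent although they may come from the same mice. The exact p for Junb in FosBcKO was 0.01, and 0.08 after adjustment over the 8 tests. Jun was higher in FosBcKO by 0.56 (exact p = 0.1, adjusted p = 0.4), and Jund differed by 0.04. In Egr1KO the differences were 0.23 for Jun, 0.32 for Junb, 0.06 for Jund and 0.25 for Atf3 (exact permutation, adjusted p = 0.78 for each). With TMM-scaled levels these were 0.35, 0.43, 0.17 and 0.37, and the difference of Junb in FosBcKO was 1.21 (exact permutation, adjusted p = 0.08).

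Over the 6 groups, the 3 groups at 6 h PCS had the highest means for each gene. By mean, Egr1KO was first, FosBcKO second and WT last at 6 h PCS for Jun (1728, 1533 and 1057 CPM), Jund (1529, 1503 and 1444 CPM) and Atf3 (749.9, 690.1 and 548 CPM). For Junb, FosBcKO was first with 827 CPM, ahead of Egr1KO with 636 and WT with 399 CPM. The step from WT at 6 h PCS down to the highest 0 h group was the only one between neighbours in this order at which the libraries did not overlap, and this held for each of the 4 genes.

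The genes also varied between libraries of 1 group, Jun and Junb the most. The pooled SD of log2 CPM within groups was 0.83 for Jun, 0.83 for Junb, 0.63 for Atf3 and 0.32 for Jund. Among the 336 genes with a mean CPM at least that of the lowest of the 4 genes, the median SD was 0.26, and 5.06% of these genes varied more than Jun, 5.95% more than Junb, 9.23% more than Atf3 and 34.2% more than Jund. For Jun and Junb the widest group was Egr1KO at 6 h PCS, in which the highest library had 6.50 times the Jun and 5.80 times the Junb of the lowest. For Atf3 it was FosBcKO at 0 h, with a quotient of 3.24. In the WT 0 h group the quotient was 1.29 for Jun.

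These deviations moved together. After subtraction of the group mean from log2 CPM, Jun was correlated with Junb at r = 0.90 and with Atf3 at r = 0.87 over the 18 libraries, and Jund with Jun at 0.74 and with Junb at 0.59. Of 17468 other genes ranked by this measure, Junb was number 8 for Jun and Jun number 8 for Junb. In 8 of 18 libraries all 4 genes lay on the same side of their group means. These values are descriptive, since all genes of a library share its scaling and the deviations of 3 libraries of a group sum to 0.

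One property of the libraries went with these deviations. Read pairs that aligned but were assigned to no annotated feature made up 8.03% to 30.5% of all pairs. Such pairs may lie between genes, or inside a gene but outside its counted features. Within groups, the libraries with more of them had less Jun and Atf3. Over the 18 within-group deviations, r was -0.71 for Jun (exact permutation within groups, adjusted over the 4 genes p = 0.00189) with rho -0.80 (adjusted p = 0.00206). For Atf3, r was -0.76 (adjusted p = 0.00317, exact permutation) and rho -0.69 (adjusted p = 0.0131). For Junb, r was -0.56 (adjusted p = 0.0293, exact permutation) and rho -0.55 (adjusted p = 0.0518). For Jund, r was -0.49 (adjusted p = 0.0293, exact permutation) and rho -0.46 (adjusted p = 0.0566), so that both passed with r and not with rho. With TMM-scaled levels rho passed for Junb (-0.61, adjusted p = 0.0244, exact permutation) and not for Jund (-0.49, adjusted p = 0.0575), and r was -0.72 for Jun, -0.59 for Junb, -0.54 for Jund and -0.77 for Atf3.

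Without the 2 libraries whose within-group deviation of the share was farthest from the median deviation, replicate 1 of FosBcKO 6 h and replicate 2 of FosBcKO 0 h, r was -0.70 for Jun, -0.54 for Junb, -0.64 for Jund and -0.72 for Atf3. In all 6 groups the library with the lowest share had more Jun and more Atf3 than the one with the highest share, and in 5 of 6 the 3 libraries were in exactly inverse order for Jun. Among the same 336 genes, r had a median of -0.31 and was lower than that of Atf3 for 1.79%, of Jun for 4.46%, of Junb for 15.2% and of Jund for 22.3%. Between the times the direction was the opposite one, since both the share and the 4 genes were higher at 6 h PCS, the share with 20.03% to 30.47% compared with 8.03% to 20.9% at 0 h. The relation was chosen after the data had been seen, and the part of this share in the results above was not tested.

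**Figure D5:**
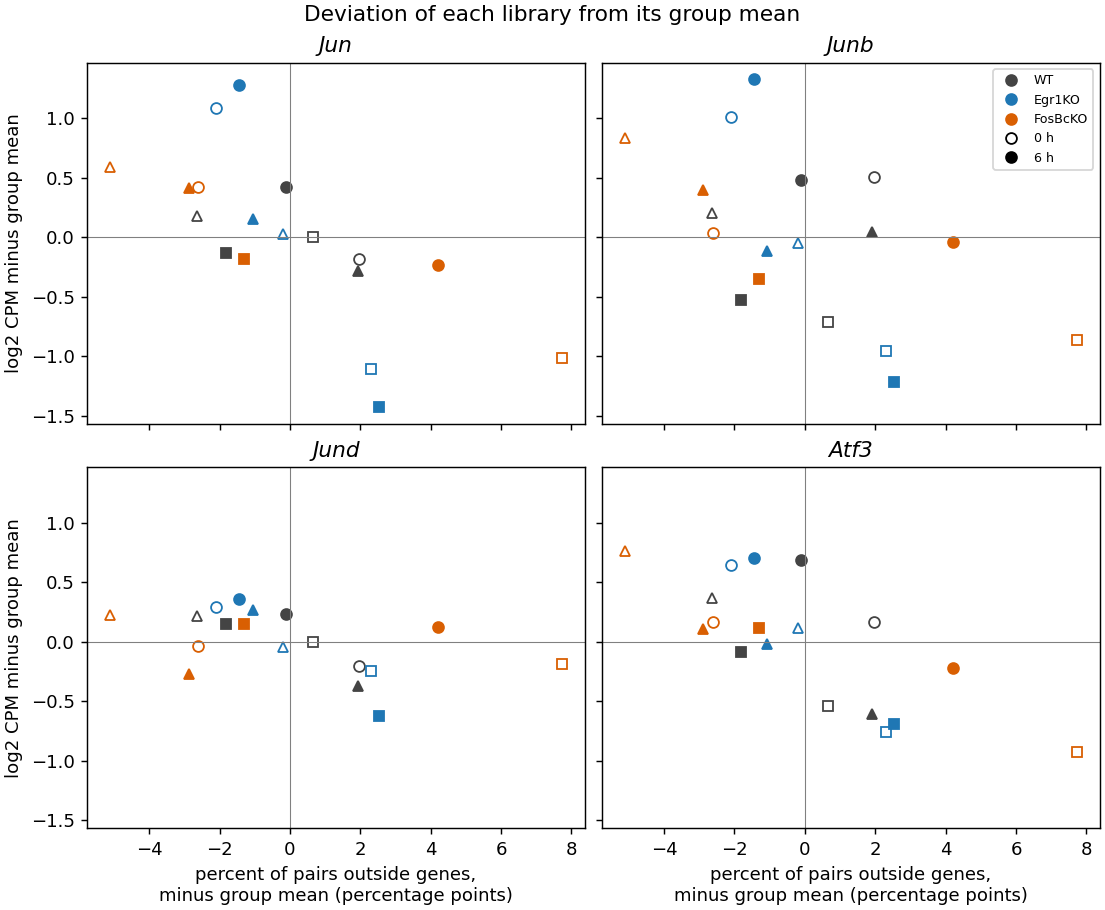
Deviation of each library's log2 CPM from its group mean for the 4 genes (vertical axis). The horizontal axis is the deviation of the library's percent of read pairs assigned to no feature (percentage points), labelled as outside genes. Colors are genotypes, open symbols 0 h, filled symbols 6 h PCS, and shapes are replicate numbers 1 (circle), 2 (square) and 3 (triangle). The points fall from upper left to lower right for Jun (r = -0.71) and Atf3 (r = -0.76), and for Jund they stay within 0.63 of 0.

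Over all 18 libraries the levels of the 4 genes followed one another. Pearson's r of log2(CPM + 1) was 0.94 between Jun and Junb, 0.96 between Junb and Atf3 and 0.97 between Jund and Atf3, which describes a pattern that the rise at 6 h PCS largely sets. Of the 17468 other genes, Junb was number 4 in likeness to Jun and Atf3 number 3 in likeness to Jund. The genes most like Junb and Atf3 were those with the identifiers ENSMUSG00000053560 (r = 0.99 with Junb) and ENSMUSG00000038418 (r = 0.98 with Atf3), whose symbols were not looked up here. Measured by deviations from group means, ENSMUSG00000053560 was again first for Junb (r = 0.97), and it was first for Junb by Spearman's rho as well (0.99), while ENSMUSG00000038418 was number 3 for Atf3 by deviations (r = 0.91). By Spearman's rho ENSMUSG00000038418 was not among the first 3 for Atf3.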

How the data were processed

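RNA of LECs from 18 pools of 5 capsules was sequenced in pairs after ribosomal depletion (SMARTer Stranded kit). The authors aligned reads with HISAT2 and deposited raw counts of read pairs per Ensembl gene from HTSeq-count in union mode. The labels give genome build GRCm39 and the study's methods an earlier mouse build, and no coordinates are used here. Lines of each table that name no gene stayed out of library sizes. They hold 8.03% to 30.5% of pairs aligned but assigned to no feature and 8.25% to 18.0% not aligned. They also hold 3.80% to 5.41% aligned more than once, 2.76% to 3.84% of low quality and 0.940% to 1.37% ambiguous.

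Counts were filtered with filterByExpr, scaled by TMM and fitted in edgeR 4.0.16 (R 4.3.3) with robust dispersions. As in the study, the quasi-likelihood F-test was used for 6 h against 0 h and the exact test for genotypes, each on the 6 libraries compared, and interactions were fitted on all 18. FDR is over all genes tested, and 95% intervals and SEs are from the quasi-likelihood fit. Scripts were tested on simulated counts. Alternatives were DESeq2 1.42.0, RLE scaling, other filters, a replicate block, 1 fit of all libraries, a call without the fold minimum and the omission of each library in turn. A TMM without the 10 most abundant genes and levels scaled by TMM were added after seeing the data. Levels, shares, spreads and permutation tests otherwise use CPM or counts without TMM factors.

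The 4 genes and the comparisons were chosen with earlier results of these data known. The genes named are these 4 and, by identifier, the nearest in pattern to Junb and Atf3. Lists of AP-1 partners, targets and cell type markers were drawn up by symbol and not used, since 0 of 55416 Ensembl identifiers matched the RefSeq gene table. In that table no other gene overlaps any of the 4. Groups and replicate numbers are those of the labels. In WT the same-numbered 0 h and 6 h libraries deviated together from their group means (r = 0.10, 0.23 and 0.25 over 17469 genes). The main tests did not pair libraries, and the number served as a block only in an alternative fit. With the number as a block, all 4 genes were again called in WT. The p-values measure the spread between pools of capsules, and 3 libraries per group limit the precision.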

Additional observations from a re-analysis of the deposited data

How the results depend on the processing

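Of 736 alternative values of the 4 genes over all comparisons, 671 kept their direction and their side of the threshold. Another 19 lost the call, 6 gained it, 40 that were never called changed sign, and 0 called values reversed. Most of the 736 belong to values not called as reported, which have no call to lose. Of 16 alternatives each, 7 lost the call for Jun in the FosBcKO response and 3 for Junb in the Egr1KO response. For Junb in FosBcKO against WT at 6 h PCS, 6 of 16 lost it. Jund in the Egr1KO response, Junb in the FosBcKO response and Jun in the WT response each lost it in 1 of 16. DESeq2, RLE scaling, TMM without the 10 most abundant genes, the filter of 10 counts and the dispersions without the robust option changed no call of the 4 genes, and dropping the fold minimum changed none. The number of genes called among the 4 changed by over 1.5 times to 0 for FosBcKO against WT at 6 h PCS with the quasi-likelihood test, with the replicate block and in one fit of all 18 libraries, compared with 1 as reported. Smaller changes were from 3 to 4 in the Egr1KO response with the exact test, the block and one fit and from 3 to 2 there without the filter, and from 4 to 3 in the WT response in one fit and in the FosBcKO response without the filter and in one fit. Leaving out 1 library at a time gave 0 to 1 there, 1 to 3 in the Egr1KO response, 2 to 4 in the FosBcKO response, 0 to 2 for FosBcKO against WT at 0 h and 0 to 1 for Egr1KO against WT at 6 h PCS. For the level averaged over both times it gave 0.97 to 1.39 for Junb in FosBcKO (adjusted p = 0.04 by exact permutation at the upper end, without replicate 2 of FosBcKO 0 h). It gave -0.089 to 0.59 for Jun, -0.014 to 0.62 for Junb and -0.036 to 0.21 for Jund in Egr1KO and -0.059 to 0.10 for Jund in FosBcKO, so that the sign of these small differences rested on single libraries (replicate 1 of Egr1KO among them). The cause of these changes was not tested.

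For same-numbered 0 h and 6 h libraries, r of their deviations was 0.02, 0.15 and 0.02 in Egr1KO and 0.16, 0.08 and 0.18 in FosBcKO. Every library correlated best with its own number in WT and in FosBcKO (3 of 3 at each time), but not in Egr1KO (2 of 3). FosBcKO was thus like WT in this, and the numbers tied the Egr1KO libraries less clearly. Between genotypes the numbers did not tie libraries, since 2 of 9 pairs at each time had r over 0.1. With the replicate block, Jun in Egr1KO was called (log2 fold change 2.04, SE 0.18, FDR 0.00205, edgeR), so that 4 genes were called there, and Junb in FosBcKO against WT at 6 h PCS was not (1.20, FDR 0.206). The block changed no other call of the 4 genes. The numbers of all genes called in the responses with the block came to 2955 (WT), 1637 (Egr1KO) and 2471 (FosBcKO), compared with 2645, 1746 and 2027 without it. Transcript lengths were not at hand, so shares divided by length were not run. With 3 libraries per group, changes as small as those between genotypes could often not be told from 0.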

Other observations

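The level at 6 h PCS was divided by that at 0 h for libraries of 1 genotype that carry the same replicate number. In Egr1KO replicates 1, 2 and 3, the quotients were 4.51, 3.17 and 4.31 for Jun, 13.9, 9.37 and 10.7 for Junb, 3.15, 2.30 and 3.74 for Jund and 11.3, 11.4 and 9.90 for Atf3. In WT they were 4.99, 2.98 and 2.38 for Jun, 10.3, 11.9 and 9.32 for Junb, 4.15, 3.40 and 2.04 for Jund and 11.9, 11.4 and 4.23 for Atf3. In FosBcKO they were 2.02, 5.68 and 2.82 for Jun, 8.60, 13.0 and 6.69 for Junb, 3.59, 4.04 and 2.29 for Jund and 6.96, 18.7 and 5.75 for Atf3. Each of these quotients was above 2. In FosBcKO replicate 2 had the highest quotient for each gene, and its 0 h library was the lowest of that group for each gene. The labels do not say that libraries with the same number came from the same mice, so these are values without a test.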
